A study of Drosophila melanogaster with 6 samples.

Results

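The genes described here code for the subunits of the proteasome, the protease complex that degrades ubiquitin-tagged proteins. They were taken by symbol: every gene whose current name begins with Prosalpha, Prosbeta, Rpn or Rpt followed by a number. Of 48 such symbols, 47 had a row among the 15682 gene identifiers of the count tables, 32 of them constitutive genes and 15 testis-type copies, whose symbols end in T or R with or without a number. Prosalpha4T1 was not matched by its identifier and is not analysed here. Levels were measured by RNA-seq in dissected midguts of Drosophila melanogaster, in 3 libraries of females and 3 libraries of males. All flies were virgin and 15 days old, had the strain background w1118, carried the label WT and lived at 29 °C, no more than 15 to a vial. Each library is a pool of 30 midguts. The labels do not say whether the pools of a sex came from separate cultures, so the p-values rest on a spread between pools that may be technical.

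The proteasome has a barrel-shaped core particle and a regulatory particle that caps it. The outer rings of the core are built of alpha subunits, which gate the entrance, and the inner rings of beta subunits, of which Prosbeta1, Prosbeta2 and Prosbeta5 carry the protease sites. The regulatory particle has a base, with the Rpt ATPases that unfold and thread substrates and the scaffold and ubiquitin receptor subunits Rpn1, Rpn2, Rpn10 and Rpn13, and a lid, whose Rpn11 removes ubiquitin. Subunits are needed in fixed proportion, and their genes are known to be regulated together, in flies by the Cap'n'collar transcription factor. Drosophila also has copies of many subunits that are expressed in the male germ line.

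Library totals ranged from 23825935 to 33278485 counts in females and from 30600544 to 38406746 in males, and 8941 genes were tested. Levels are given in CPM, the count scaled to a common library size with TMM factors, which set libraries level over most genes. The 7 midgut markers were present in all libraries, with summed levels of 76860 to 98900 CPM in females and 87780 to 94710 CPM in males, but single markers differed between the sexes. The maltase and amylase genes Mal-A1 and Amy-p were lower in females (log2 -1.19 and -0.75, edgeR adjusted p = 0.00247 and 0.0345). Myo31DF (-0.35) also had all females below all males and Jon65Aiv (0.37) all above, without passing. Male replicate 3 stood apart in reproductive tract genes: of 20 testis and sperm markers it held 17, where males 1 and 2 held 4 and 7 and each female held 2. Of 10 accessory gland markers it held all 10, where each of males 1 and 2 held 2 and females held 1 to 4, mainly EbpIII. Female replicate 1 stood apart in the summed level of the ovary and female germ line list. The list summed to 304.6, 99 and 87.2 CPM in females and 46.27 to 51.66 CPM in males. Most of the male sum lay on gus alone, with 39.99 to 48.96 CPM in males and 37.84 to 44.12 CPM in females. The yolk protein genes Yp1, Yp2 and Yp3 had 144.7, 55.71 and 65.44 CPM in female 1, against 10.7 to 24.87 CPM in females 2 and 3. By genes detected, females 1 to 3 held 6, 5 and 11 of 12. Among females, osk, Vm26Aa, Vm26Ab, Cp36 and Cp38 had counts in female replicate 3 alone. The 6 fat body markers summed to 25.35, 7.321 and 6.998 CPM in females and 6.096, 17.85 and 16.74 CPM in males. Nearly all of it lay on apolpp, with 24.85 CPM in female 1. Because whole midguts were measured, fewer cells of a type and less RNA per cell cannot be told apart.

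None of the 31 tested constitutive genes passed the test between female and male midguts, and all 31 leaned the same way. Their log2 fold changes of female over male were negative, between -0.42 and -0.02, with a median of -0.22, a female level of 0.86 of the male level. Over all 8941 tested genes 52.8% were negative, with a median of -0.02. At an adjusted p under 0.05, edgeR called 0 of the 31, as did DESeq2 and limma-voom, and 3 had an unadjusted p under 0.05 in edgeR. The background was 9.39% of all genes called in either direction by edgeR, 13.5% by DESeq2 and 9.73% by limma-voom, and 21.0% at an unadjusted p under 0.05. The genes were measured in the same 6 libraries and are known to be regulated together, so the 31 signs are not 31 independent observations. Female replicate 1 had all 31 genes below their mean over the 6 libraries, against 17 and 26 in females 2 and 3, and without it the median log2 fold change was -0.17 and Prosbeta1, Rpt1 and Rpt4 turned positive (0.01 to 0.02). Exons of 12 of the 31 overlap a gene on the opposite strand, among them those of Rpt6, with 13% of their length in CG1801, and those of Prosbeta2, with 7.93% in Reck. How such reads were counted is not given, so these values are uncertain to that extent.

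Enteroendocrine markers were lower in females in sum, as the subunit genes were, and the order of libraries within a sex was partly shared. All 6 were detected in every library, and they summed to 310.0, 353.3 and 306.6 CPM in females and 463.5, 413.5 and 421.5 CPM in males, without overlap. Female replicate 2 had the highest marker sum of the females and, at 2960.4 CPM, their highest summed subunit level. Male replicate 1 had the highest marker sum of the males and, at 3145.6 CPM, their lowest summed subunit level. Of the 6, the peptide hormone genes Tk (log2 -0.47, edgeR adjusted p = 0.0335) and AstA (-0.73, 0.0384) were lower in females. The other 4 did not pass. Of these, pros (log2 -0.49) and AstC (-0.45) had all females below all males, Dh31 overlapped (-0.36) and NPF was level (0.01). The part of enteroendocrine content in the subunit values was not tested, nor was that of the yolk protein and fat body transcripts of female replicate 1.

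The 95% intervals of the single fold changes show what sizes of difference these libraries allow. No interval reached 2-fold in either direction, and 25 of the 31 lay within 1.5-fold. The lowest bound, of Prosbeta6, stood at -0.71 (a female level of 0.613 of the male level) and the highest, of Prosbeta1, at 0.28 (a ratio of 1.21). In TMM-scaled CPM, 12 of the 31 genes, 38.7%, had all 3 female libraries below all 3 male libraries, and in 0 were they all above. The background over all tested genes was 13.8% all below and 12.4% all above. Together the 31 genes took 0.267%, 0.272% and 0.287% of the counts of female replicates 1 to 3, and 0.32%, 0.334% and 0.331% in male replicates 1 to 3. These shares did not overlap between the sexes. Over the 13 core genes the median log2 fold change was -0.25 and over the 18 regulatory genes -0.21, and without male replicate 3 the core median was -0.13.

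**Figure D1:**
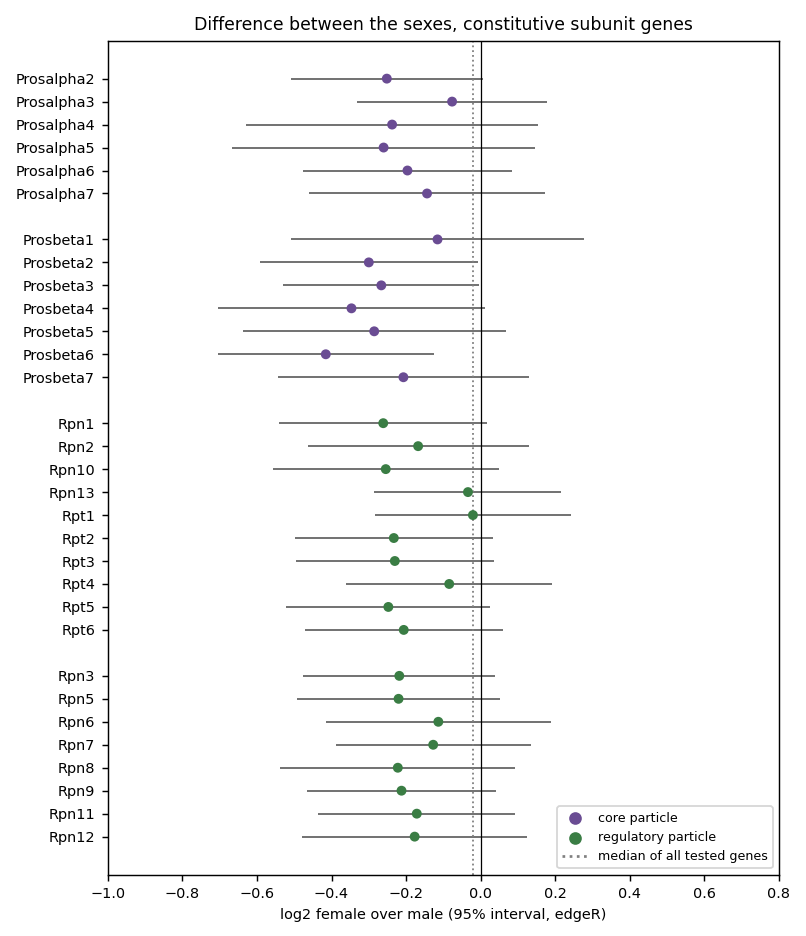
Log2 fold change of female over male with its 95% interval from edgeR (x axis) for the 31 tested constitutive genes (y axis), grouped by alpha ring, beta ring, base and lid. All points lie left of 0, from -0.42 to -0.02, and 28 of the 31 intervals include 0.

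Among the outer ring genes of the core, Prosalpha2 had the smallest p. It stood at 91.9, 100.5 and 91.6 CPM in females 1 to 3, against 112, 115.3 and 111 CPM in males 1 to 3. All females were below all males (log2 -0.25 ± 0.12 SE, edgeR adjusted p = 0.248). Prosalpha5, the lowest alpha gene per kilobase, had 50.2, 73.2 and 57.7 CPM in females and 62.8, 63.6 and 90.5 CPM in males. Female replicate 2 was above males 1 and 2, and the difference did not pass (log2 -0.26 ± 0.18, edgeR adjusted p = 0.501). The other 4 tested alpha genes, Prosalpha3, Prosalpha4, Prosalpha6 and Prosalpha7, overlapped between the sexes, with log2 fold changes of -0.24 to -0.08.

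Prosalpha1, an outer ring subunit that every proteasome needs, was listed at or near 0. It had 0, 0 and 2 counts in females 1 to 3 and 0, 0 and 7 counts in males 1 to 3, while the other constitutive genes had 1212 to 6639 counts per library. Prosalpha1R was listed at 0 in all 6 libraries. The genes lie close together on chromosome arm 2R and are known as close copies. How reads that match several places were treated in the counting is not given in the sources used here, and the part of that treatment in these values was not tested. No level is given for either gene.

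The inner ring genes had a median log2 fold change of -0.29 over 7 genes against -0.22 over the 6 tested alpha genes. Prosbeta6, a structural subunit without a protease site, had the smallest p of all members, at 57.2, 60.9 and 48.6 CPM in females against 73.4, 70.2 and 78.8 CPM in males. The sexes did not overlap, and the mean ± SD over 3 libraries was 55.6 ± 6.27 CPM in females and 74.1 ± 4.34 CPM in males. The log2 fold change was -0.42 ± 0.13 with an edgeR adjusted p of 0.079 (DESeq2 0.0604, limma-voom 0.0728). With libraries scaled to their totals alone, it was the only member to pass (log2 -0.47, edgeR adjusted p = 0.048; 0.048 to 0.27 over all alternatives), where 6.18% of all genes were called higher in males.

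Of the protease subunits, Prosbeta2, which carries the trypsin-like site, had 93.03, 94.8 and 83.0 CPM in females against 118, 119 and 96.6 CPM in males. All females were below all males, male replicate 3 by the least (log2 -0.30 ± 0.13, edgeR adjusted p = 0.223). Prosbeta5, which carries the chymotrypsin-like site, had 91.1, 116 and 98.9 CPM in females against 107, 114.8 and 151 CPM in males. Female replicate 2 was above males 1 and 2, and male replicate 3 was the highest library (log2 -0.29 ± 0.16, edgeR adjusted p = 0.362). Prosbeta1, with the caspase-like site, had 53.4, 79.6 and 59.7 CPM in females against 62.4, 62.5 and 83.7 CPM in males. Its sexes overlapped (log2 -0.12 ± 0.18, edgeR adjusted p = 0.809), and its sign turned without female replicate 1 (0.01) or male replicate 3 (0.04).

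Of the other beta genes, which build the inner rings without protease sites, Prosbeta3 had 53.7, 57.5 and 55.6 CPM in females and 69.9, 67.4 and 63.3 CPM in males. Its sexes did not overlap (log2 -0.27 ± 0.12, edgeR adjusted p = 0.229). Prosbeta4 had 52.8, 72.9 and 53.6 CPM in females and 67.3, 73.4 and 87.2 CPM in males. Female replicate 2 was above male replicate 1 (log2 -0.35 ± 0.16, edgeR adjusted p = 0.254). Prosbeta7 overlapped between the sexes (log2 -0.21 ± 0.15, edgeR adjusted p = 0.522).

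In the base, Rpn1, the scaffold to which ubiquitin receptors and shuttles dock, led by p. It had 136, 139 and 154 CPM in females against 172, 181 and 160 CPM in males. The sexes did not overlap, with female replicate 3 nearest to male replicate 3 (log2 -0.26 ± 0.13, edgeR adjusted p = 0.276). Rpn2, the other large scaffold subunit, had 151, 129 and 158 CPM in females and 168, 173 and 151 CPM in males, and the sexes overlapped (log2 -0.17 ± 0.13, edgeR adjusted p = 0.566). The ubiquitin receptor genes Rpn10 and Rpn13 also overlapped, with log2 fold changes of -0.25 ± 0.14 and -0.03 ± 0.11.

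The 6 ATPase genes of the base ranged in log2 fold change from -0.25 to -0.02. Rpt5 had 75.4, 83.6 and 77.9 CPM in females and 98.3, 99.5 and 83.5 CPM in males, so that female replicate 2 and male replicate 3 were level (log2 -0.25 ± 0.12, edgeR adjusted p = 0.294). Rpt2 had 103, 113 and 114.5 CPM in females and 130, 135 and 124 CPM in males, without overlap (log2 -0.23 ± 0.12, edgeR adjusted p = 0.315). Rpt1 was nearest to level of the 31 genes, at 123, 131 and 134 CPM in females and 125, 135 and 134 CPM in males. Its sexes overlapped throughout (log2 -0.02 ± 0.12, 95% interval -0.28 to 0.24, edgeR adjusted p = 0.96). Rpt3 and Rpt6 did not overlap between the sexes (log2 -0.23 ± 0.12 and -0.21 ± 0.12), and Rpt4 did (-0.08 ± 0.13).

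The 8 lid genes lay closest together, with log2 fold changes of -0.22 to -0.11. Rpn11, the deubiquitinating subunit, had 85.2, 98.9 and 96.2 CPM in females against 104, 108 and 104 CPM in males. All females were below all males (log2 -0.17 ± 0.12, edgeR adjusted p = 0.493). Rpn9, a structural lid subunit and the lowest lid gene per kilobase, had 72.3, 75.0 and 78.0 CPM in females against 83.0, 87.4 and 90.5 CPM in males. It did not overlap either (log2 -0.21 ± 0.12, edgeR adjusted p = 0.341), nor did Rpn3 and Rpn5. Rpn6, Rpn7, Rpn8 and Rpn12 overlapped between the sexes. The 4 X-linked members, Prosalpha4, Rpt3, Rpt4 and Rpt6, had a median log2 fold change of -0.22, as did the 27 autosomal ones, a comparison without a test.

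Divided by exon length, the levels of the 31 genes spanned 2.4-fold in females and 2.54-fold in males. Prosalpha2 was highest, at 103 ± 5.52 CPM per kilobase in females and 122 ± 2.64 in males (SD over 3 libraries). Rpn2 was lowest, at 42.9 ± 4.41 CPM per kilobase in females and 48.1 ± 3.43 in males. Next after Prosalpha2 came Prosbeta5 (89.5 ± 11.2 in females, 109 ± 20.5 in males) and Prosbeta2 (87.3 ± 6.17 in females, 107 ± 12.2 in males), which did not differ from each other beyond their spread. Core genes had a median of 75.3 CPM per kilobase in females and 87.1 in males, and regulatory particle genes 58.7 in females and 66.2 in males. The order of the genes was nearly the same in both sexes (Pearson r = 0.97, Spearman rho = 0.95 across 31 genes, with exon lengths in common). Exon lengths came from a later build than dm3, the build of the files.

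**Figure D2:**
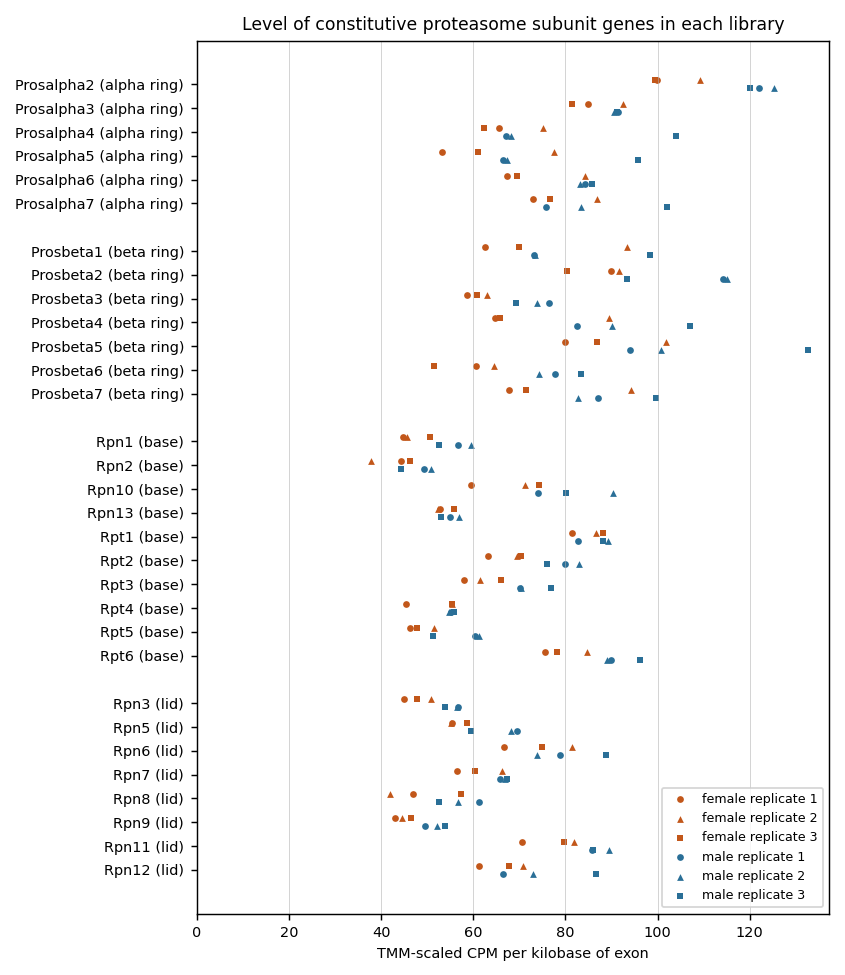
TMM-scaled CPM per kilobase of exon (x axis) of the 31 tested constitutive genes (y axis), with 1 point for each library, female libraries drawn above male ones. Prosalpha2 has the highest and Rpn2 the lowest levels, and in many core genes female replicate 2 and male replicate 3 are the highest libraries of their sex.

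Core and regulatory particle genes did not move together in every library. The summed core level over the summed regulatory level was 0.543, 0.611 and 0.496 in females 1 to 3 and 0.546, 0.54 and 0.633 in males 1 to 3. Female replicate 2 and male replicate 3 thus had the highest ratios of their sex, and the sexes overlapped (0.55 ± 0.0578 in females against 0.573 ± 0.052 for males, SD over 3 libraries). Relative to the mean of the 6 libraries, the median core gene stood at -0.181, 0.062 and -0.176 (log2) in females and at 0.044, 0.039 and 0.297 in males. The median regulatory gene stood at -0.193, -0.044 and -0.042 in females and at 0.068, 0.114 and 0.061 in males. For the regulatory particle all females lay below all males, and for the core female replicate 2 lay above males 1 and 2.

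The libraries with the highest ratio of each sex were also extreme in the level of short genes and of muscle markers. Core genes have 815 to 1215 bases of exon and regulatory genes 995 to 3412. All tested genes under 1500 bases of exon had median deviations of -0.025, 0.085 and -0.07 in females and -0.082, -0.062 and 0.174 in males, highest in the same libraries, female replicate 2 and male replicate 3. Across the 31 genes, the log2 ratio of female replicate 2 over female replicate 1 had a correlation of -0.58 with log2 exon length (Spearman rho -0.47), and that of male replicate 3 over male replicate 1 had -0.47 (Spearman rho -0.41). The log2 fold change of female over male had a correlation of 0.22 with log2 exon length (Spearman rho 0.26). The 5 visceral muscle markers with a row were detected in all libraries. They summed to 1135, 448.7 and 770.2 CPM in females and 997.6, 1265 and 637.2 CPM in males, lowest in female replicate 2 and male replicate 3. Female replicate 1 had a higher muscle sum than female replicate 3 and also a higher core over regulatory ratio (0.543 against 0.496). The part of length and muscle content in the core values was not tested. Without female replicate 2 and male replicate 3 together, a choice made after seeing the data, the median log2 fold change was -0.22 over the 31 genes, -0.29 over core and -0.18 over regulatory genes. edgeR then called 0 of the 31, with 9 at an unadjusted p under 0.05, where it called 8.06% of all genes in either direction.

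**Figure D3:**
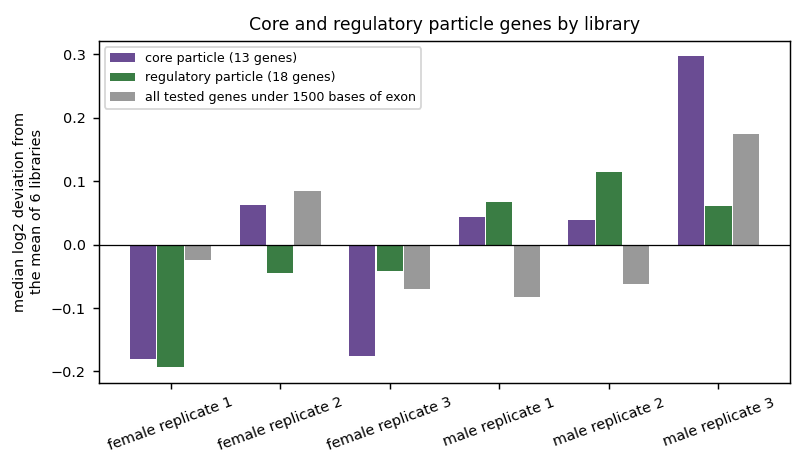
Median log2 deviation from the mean of the 6 libraries (y axis) in each library (x axis) for 13 core genes, 18 regulatory particle genes and all tested genes under 1500 bases of exon. Core genes are highest in male replicate 3 (0.297) and, among females, in female replicate 2 (0.062), as are short genes (0.174 and 0.085).

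Few counts lay on testis-type copies in either sex. The 15 copies, of which the 0 of Prosalpha1R is not read as a level, together had 126 counts in the 6 libraries, against 568281 on the 31 constitutive genes. By library they had 3, 2 and 11 counts in females and 25, 12 and 73 counts in males, and male replicate 3 held most of them. In females all 16 counts lay on Rpt3R, a copy of the base ATPase gene Rpt3. Rpt3R had 3, 2 and 11 counts in females and 16, 3 and 21 counts in males, and its sexes overlapped. It was the only copy to pass the filter on low counts (log2 -1.01, 95% interval -3.23 to 1.20, edgeR adjusted p = 0.667). Its exons share 1.38% of their length with Alg12 on the opposite strand.

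The other 14 copies had 0 counts in females and 70 in males. Leaving out Rpt3R, the only copy with female counts, fixed that 0, so no fold is given for the 14 together. Ratios for single copies set the male counts against a floor of 3 counts over the female libraries together. The floor covers counting error in females only. Male counts are taken without error, so the ratios are not lower bounds. Rpt4R, a copy of an ATPase gene, had 6, 1 and 15 counts in males, a ratio of 6.28 to that floor and of 3.23 without male replicate 3. Prosbeta2R2, a copy of a protease subunit gene, had 2, 8 and 5 counts in males, a ratio of 4.28 to that floor. Each male library thus held both copies. Prosalpha3T had 1, 0 and 5 counts in males. A further 7 copies had counts in male replicate 3 alone: Prosalpha4T2 (6 counts), Prosbeta5R1 (5), Prosalpha6T, Prosbeta2R1 and Rpt6R (4 each), Prosbeta4R2 (3) and Rpn12R (1). Prosalpha1R, Prosbeta4R1, Prosbeta5R2 and Rpn13R were listed at 0 in all libraries.

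The testis and sperm markers were counted in the same libraries. All 20 together summed to 7.21, 4.74 and 5.54 CPM in females and 7.99, 5.06 and 13.1 CPM in males. Females had counts on topi and bgcn only. The other 18 markers, set apart after their values were seen, had 0 counts in each female library and 4, 29 and 281 counts in males 1 to 3, with 2, 5 and 15 of them detected. betaTub85D, the testis beta-tubulin gene, had 85 counts in male replicate 3 and 0 in every other library, and the germ line gene bam had 0 in all 6. The part of testis RNA in the counts of the copies was not tested. Without male replicate 3, the 15 copies had 37 counts in males, of which 18 lay on copies other than Rpt3R.

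**Figure D4:**
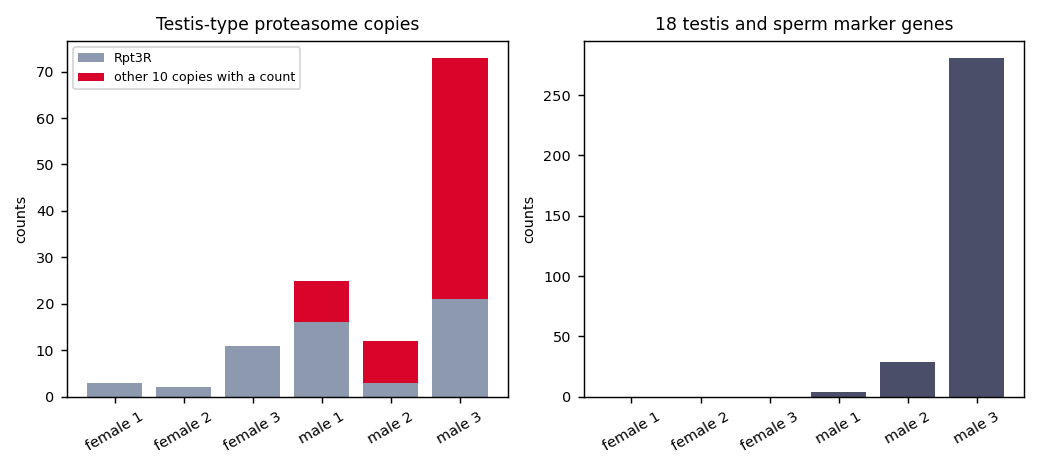
Counts (y axes) in each library (x axes) on testis-type proteasome copies (left) and on 18 testis and sperm markers (right). Male replicate 3 has 73 counts on the copies and 281 on the markers, and females have counts on Rpt3R alone.

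Genes that assemble or adjust the proteasome did not pass either. Pomp, the maturation factor of the core, had 36.2, 51.7 and 41.4 CPM in females and 47.6, 45.8 and 62.1 CPM in males, with overlap (log2 -0.26 ± 0.17, edgeR adjusted p = 0.449; 40% of its exon sequence overlaps vari on the opposite strand). CG12321 had 21.4, 25.1 and 22.4 CPM in females and 25.3, 29.3 and 35.9 CPM in males. All females were below all males (log2 -0.39 ± 0.16, edgeR adjusted p = 0.168). The assembly list had 3 tested genes of 8 listed symbols, with a median log2 fold change of -0.265. Of these, edgeR, DESeq2 and limma-voom called 0, and 1 had an unadjusted p under 0.05 in edgeR. Over all tested genes the shares called were 9.39%, 13.5% and 9.73%, and 21.0% had an unadjusted p under 0.05. In a list this short, 0 called is near those shares.

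Of the activators and inhibitors, 3 of 6 listed symbols were tested, of which edgeR, DESeq2 and limma-voom called 0. In edgeR 1 had an unadjusted p under 0.05. The shares over all genes were 9.39%, 13.5% and 9.73% called and 21.0% at an unadjusted p under 0.05. REG, which codes for an activator cap of the core used in place of the regulatory particle, had 56.6, 82.8 and 52.9 CPM in females and 45.8, 46.5 and 53.3 CPM in males. Its fold change was positive where those of all 31 subunit genes were negative, and male replicate 3 was above female replicate 3 (log2 0.40 ± 0.18, edgeR adjusted p = 0.218). Female replicate 2 was the highest library, and without it the log2 fold change was 0.17 (edgeR adjusted p = 0.614; 0.159 to 0.614 over all alternatives). CG8858 had 35.0, 36.9 and 49.7 CPM in females and 43.3, 46.5 and 50.8 CPM in males, with overlap (log2 -0.21 ± 0.16, edgeR adjusted p = 0.542), and PI31, whose product binds and inhibits the core in vitro, had -0.10 ± 0.13.

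All 8 listed regulators of proteasome genes were tested, of which edgeR, DESeq2 and limma-voom called 0. In edgeR 1 had an unadjusted p under 0.05. Over all genes 9.39%, 13.5% and 9.73% were called and 21.0% had an unadjusted p under 0.05. maf-S, the small Maf partner of Cap'n'collar, had 65.8, 67.2 and 66.6 CPM in females against 49.9, 37.8 and 58.8 CPM in males. All females were above all males (log2 0.45 ± 0.16, edgeR adjusted p = 0.124), and without male replicate 3 it passed (log2 0.60, edgeR adjusted p = 0.0283; 0.0283 to 0.407 over all alternatives). cnc, the Cap'n'collar gene, had 448, 445 and 455 CPM in females and 535, 539 and 445 CPM in males (log2 -0.17 ± 0.14, edgeR adjusted p = 0.58), with male replicate 3 at the female level. Dref, the factor of the DNA replication-related element, had 32.2, 28.7 and 34.2 CPM in females and 28.9, 26.5 and 28.3 CPM in males. Female replicate 2 was below male replicate 1 (log2 0.18 ± 0.13, edgeR adjusted p = 0.503).

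Ubiquitin-coding genes had fold changes of both signs, and 1 of them passed. Ubi-p5E, an X-linked polyubiquitin gene, was higher in females, at 576, 588 and 500.3 CPM against 306, 256 and 277 CPM in males. The sexes lay far apart (log2 0.99 ± 0.15, edgeR adjusted p = 0.00178), and it passed under every alternative tried (highest adjusted p 0.0156). Ubi-p63E, the other polyubiquitin gene, had 257, 280 and 240 CPM in females against 378, 337 and 337 CPM in males. All females were below all males, a difference that missed the threshold in edgeR (log2 -0.44 ± 0.14, edgeR adjusted p = 0.0764) and limma-voom (0.0636) and passed in DESeq2 (0.0149; 0.0149 to 0.259 over all alternatives). Counts on Ubi-p5E over counts on Ubi-p63E came to 2.24, 2.1 and 2.08 in females and 0.809, 0.76 and 0.821 in males. Both genes are arrays of near-identical ubiquitin repeats, so reads could have been split between them and their values are uncertain.

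RpL40 and RpS27A, which code for ubiquitin fused to a ribosomal protein, had log2 fold changes of 0.62 ± 0.19 and 0.62 ± 0.18 (edgeR adjusted p = 0.0725 and 0.0525). RpS27A had 1667, 2029 and 1660 CPM in females against 997.6, 1076 and 1400.0 CPM in males, without overlap between the sexes. It was called by DESeq2 (adjusted p = 0.0036) and limma-voom (0.0373). RpL40 had 1166, 1476 and 1129 CPM in females against 704.4, 715.9 and 1028 CPM in males, and was called by DESeq2 (adjusted p = 0.0113) but not by limma-voom (0.052). Male replicate 3 was the highest male library for both genes, and without it both passed (edgeR adjusted p = 0.0124 for RpS27A and 0.0113 for RpL40). Over all alternatives the adjusted p ranged from 0.0036 to 0.206 for RpS27A and from 0.0113 to 0.272 for RpL40. The ubiquitin list, which also holds E1 enzymes and Nedd8, had 10 tested genes of 11, with a median log2 fold change of 0.18. Of these, edgeR called 1 higher in females and 0 in males, where it called 3.87% and 5.53% of all genes. DESeq2 called Ubi-p5E, Ubi-p63E, RpL40 and RpS27A, and limma-voom called Ubi-p5E and RpS27A. Over all genes they called 13.5% and 9.73%. In edgeR 4 of the 10 had an unadjusted p under 0.05, against 21.0% of all genes.

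**Figure D5:**
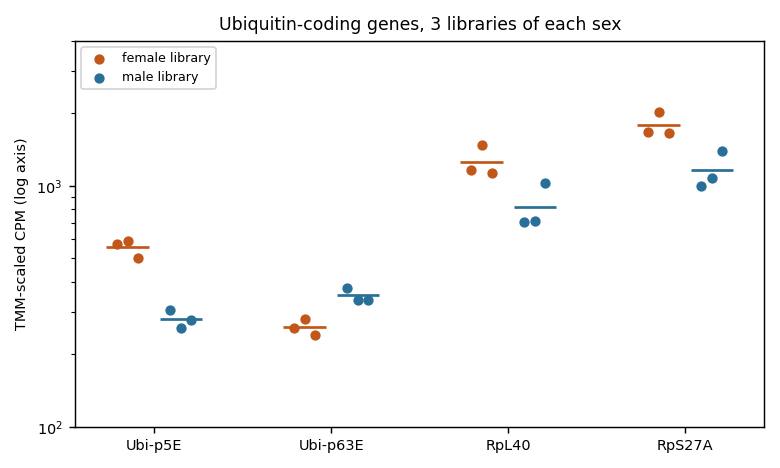
TMM-scaled CPM (y axis, log scale) of the 4 ubiquitin-coding genes (x axis), with 1 point for each library and a bar at the mean of 3 libraries of a sex. Ubi-p5E is higher in all females (500.3 to 588 CPM) than in males (256 to 306), and Ubi-p63E lies at 240 to 280 CPM in females and 337 to 378 in males.

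Of the genes that deliver substrates, 6 of 9 listed symbols were tested and the median log2 fold change was -0.09. Of 10 deubiquitinase symbols 9 were tested, with a median of -0.20. In both lists edgeR, DESeq2 and limma-voom called 0, and 0 had an unadjusted p under 0.05 in edgeR. The shares over all genes were 9.39%, 13.5% and 9.73% called and 21.0% at an unadjusted p under 0.05. Faf2 had 63.8, 65.8 and 69.4 CPM in females and 65.3, 55.8 and 56.2 CPM in males (log2 0.17 ± 0.13, edgeR adjusted p = 0.531). casp had 71.0, 64.2 and 67.6 CPM in females and 85.4, 75.8 and 66.8 CPM in males (log2 -0.17 ± 0.13, edgeR adjusted p = 0.55). In both genes 1 library crossed into the range of the other sex. Uch, a ubiquitin hydrolase gene, had 45.0, 49.7 and 43.4 CPM in females and 55.0, 51.7 and 54.9 CPM in males, without overlap (log2 -0.23 ± 0.12, edgeR adjusted p = 0.348). Usp14, which acts on the regulatory particle, had 75.1, 70.8 and 85.9 CPM in females and 92.6, 97.1 and 81.0 CPM in males, with overlap (log2 -0.22 ± 0.13, edgeR adjusted p = 0.385). In all lists together 39 of 52 listed symbols were tested, and the others were not matched by symbol or identifier or were too low. Whether an unmatched symbol is another name of a tested gene was not checked.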

How the data were processed

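Per the authors' deposited tables, values are raw whole-number counts for each gene. The submitters' processing notes name TopHat2 2.0.11, HTSeq and build dm3. No source used here gives the strand setting, the annotation release or the treatment of multiply matching reads. Per the labels' protocols, 500 ng of total RNA went into each stranded mRNA library, read as pairs of 100 bases, and the labels name different sequencer models. A current name table gave symbols for 15002 identifiers. Exon lengths, chromosome arms and overlaps came from Ensembl BDGP6 by identifier, a later build. Of the 31 tested constitutive genes, 12 share 0.0615% to 13% of their exon length with an opposite-strand gene, whose reads cannot be told apart without strand.

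With R 4.3.3, genes were kept by filterByExpr (minimum count 10, total 15), libraries were scaled with TMM, and edgeR 4.0.16 fitted sex alone on all 6 libraries (robust quasi-likelihood, two-sided, Benjamini-Hochberg over all tested genes, threshold 0.05). Each ± after a log2 fold change is a standard error, its absolute value over the square root of F, which restates the p, and 95% intervals use the t quantile of that fit. Deviations used log2 of CPM plus 0.5. Alternatives were RLE factors, no scaling, other filters, DESeq2 1.42.0, limma-voom (limma 3.58.1), a replicate block and leaving out libraries. Libraries of a sex differed beyond counting noise (lowest chi-square 29.8 times its degrees of freedom). The steps were also run on simulated data, with the outcome not reported here.

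Members and lists were chosen with earlier results of these data known. Values per library are given for the 8 constitutive genes of smallest p, the highest and lowest per kilobase in each subcomplex, the protease subunits, the extremes of fold change and each testis-type copy with a count; of each related list, for called genes and the 2 of smallest p; the other genes with values, among them Ubi-p63E, RpL40, PI31 and cnc, were named after their values were seen. Unmatched identifiers are not analysed here. No sequence is printed.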

Additional observations from a re-analysis of the deposited data

How the results depend on the processing

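Across 14 alternative settings the number of constitutive genes called higher in females was 0, and the number called higher in males was 0 except with no scaling beyond the library total, where it was 1 (Prosbeta6). The median log2 fold change of all 31 genes ranged from -0.27 to -0.166, of core genes from -0.323 to -0.128 and of regulatory genes from -0.264 to -0.165. Leaving out a single library gave medians of -0.255 to -0.166 over all 31 genes, -0.323 to -0.128 over core genes and -0.223 to -0.165 over regulatory genes. Signs turned for 3 genes: with single libraries left out Prosbeta1 ranged from -0.302 to 0.038, Rpt1 from -0.044 to 0.021 and Rpt4 from -0.133 to 0.012. Prosbeta1 turned without female replicate 1 (0.01) or male replicate 3, Rpt1 without female replicate 1 or male replicate 2 (0.00), and Rpt4 without female replicate 1; the cause was not tested. Of the genes that missed the threshold, Ubi-p63E and RpS27A passed with no scaling (-0.49 and 0.57). Deviations from the group means correlated at -0.105, -0.276 and -0.136 between female and male samples of like replicate number, 1 to 3. The deviations of a sex cancel over its 3 libraries. The correlations thus depend on one another and cannot show whether replicate numbers pair the samples. Samples of unlike number correlated at -0.108 to 0.274 (female 1 with male 2), and whether they shared a batch was not tested. With the replicate block 0 members were called (lowest edgeR adjusted p 0.199), the median log2 fold change was -0.218, and 676 of all genes were called, against 840 without it. The testis-type counts, 16 in females and 110 in males, were 0 in females and 70 in males without Rpt3R, and 37 in males without male replicate 3, an alternative added after seeing the data, as was leaving out female replicate 2 and male replicate 3 together. Depth limits the testis-type copies, with at most 73 counts in a library; the 31 tested constitutive genes had at least 1212.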
